A study of Rattus norvegicus with 12 samples.

Results

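The genes examined here encode the machinery of mitochondrial oxidative phosphorylation in the rat cerebral cortex. They were taken by gene symbol alone: every row whose symbol begins with Nduf followed by a, b, c, s or v, with Uqcr, with Cox and a digit from 4 to 8 or with Atp5, together with Sdha to Sdhd, which gave 85 of the 17268 symbols in the count table. By complex, 42 symbols belong to complex I, 4 to complex II, 7 to complex III, 18 to complex IV and 14 to complex V. RNA was sequenced from 12 rats, 3 per group, and each rat gave 1 library. All were adult male Sprague Dawley rats with no engineered allele. Sham rats were operated on without a clot. Model rats received a blood clot in the middle cerebral artery, which gives an embolic stroke. The rt-PA group had the same clot and was given rt-PA, the recombinant tissue plasminogen activator used to dissolve clots, 6 h later. The rt-PA+Acu group had the clot, XNKQ acupuncture at GV26 and PC6 at 2 h and rt-PA at 6 h. No group had acupuncture without rt-PA, so the effect of needling alone was not measured. The tissue was cerebral cortex with its cell types mixed, so that fewer cells of a type and less RNA per cell cannot be told apart. The labels do not say which part of the cortex was taken.

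Oxidative phosphorylation takes place in the inner mitochondrial membrane. Complex I and complex II pass electrons from NADH and succinate to ubiquinone, complex III hands them to cytochrome c, complex IV gives them to oxygen, and the proton gradient built on the way drives the ATP synthase, complex V. Neurons depend on this pathway for most of their ATP, and a stop in the supply of oxygen and glucose, as in stroke, halts it within minutes. The subunits of complexes I, III, IV and V come from nuclear genes and from mitochondrial DNA, and those of complex II from nuclear genes alone. Mitochondrially encoded subunits were not analysed here.

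The symbol rule gathered 72 symbols of subunits and 13 of other kinds. Those 13 were 7 assembly factors of complex I (Ndufaf1 to Ndufaf7), Cox7a2l, which helps complexes III and IV join into supercomplexes, Atp5if1, the inhibitor of ATP synthase, the pseudogenes Ndufv3-ps1 and Cox6c-ps1, and the related sequences Ndufa10l1 and Cox7a2l2. Ndufa4 was counted with complex IV, where its protein sits. Ndufa10 and other subunits without a row were not analysed here, and reads of near-identical copies could have been counted on Ndufa10l1, Cox7a2l2 or the c-ring genes, which makes those rows uncertain. Cox6c-ps1 and Cox8c had 0 counts in every library. Ndufv3-ps1 and Cox7b2 had at most 4 counts in a library and Atp5me at most 10. These 5 symbols were too low to test, and Cox7a1, at 0.0872 to 1.22 CPM, was tested only in the comparisons with Sham, which left 80 tested genes there and 79 elsewhere.

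Nuclear genes of this pathway are known for promoters with sites of NRF1, of ETS factors such as GABP and of YY1. Of the 85 symbols, 74 had a promoter in the RefSeq table, from 250 bases before to 50 bases after the gene start in the GRCr8 build. The letters of NRF1, GCGCA and GCGC with any 1 base between them, read on both strands, stood in 18.9% of them, against 4.25% of all 33469 promoters of the same length and 9.58% of promoters of genes tested in Model vs Sham. The ETS letters CCGGAAG stood in 27% (8.75% of all promoters and 16.3% of those of tested genes), and the YY1 letters AAGATGGC in 18.9% (3.17% and 5.13%). The ETS and YY1 letters can share the bases AAG, and a promoter with such an overlap was counted for both. The windows below each span 100 bases and were chosen after the values were seen: Sdha, Ndufa5 and Sdhd fell in Model and rose when acupuncture preceded rt-PA, and Ndufaf4 went the other way in both. Capitals mark the NRF1 letters in Sdha (chr1:30764453-30764552, plus strand, 2 matches in the window), Ndufa5 (chr4:53971236-53971335, minus strand) and Ndufaf4 (chr5:43401625-43401724, plus strand, 170 to 71 bases before the start), and the ETS letters, here on the opposite strand, in Sdhd (chr8:59850642-59850741, minus strand). Each is given 5′ to 3′ along its gene, and the windows of Sdha, Ndufa5 and Sdhd end at the base before the start.
Sdha: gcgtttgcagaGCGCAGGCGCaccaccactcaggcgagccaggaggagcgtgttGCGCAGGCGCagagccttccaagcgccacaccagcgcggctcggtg
Ndufa5: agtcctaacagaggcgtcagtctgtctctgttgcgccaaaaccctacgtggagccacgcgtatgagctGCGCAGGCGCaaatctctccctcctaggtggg
Ndufaf4: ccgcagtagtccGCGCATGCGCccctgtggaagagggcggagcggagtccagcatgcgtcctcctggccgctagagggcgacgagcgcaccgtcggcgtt
Sdhd: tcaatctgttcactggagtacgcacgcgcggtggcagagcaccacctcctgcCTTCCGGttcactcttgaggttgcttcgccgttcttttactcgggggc
The NRF1 letters thus stood before genes that moved in opposite directions. They were found in 4 of the 32 promoters of genes that fell in Model vs Sham and in 3 of the 5 of genes that rose. The ETS letters stood in 11 of the 32 and 1 of the 5, and the YY1 letters in 9 and 0. In genes that did not pass, the NRF1, ETS and YY1 letters stood in 17.6, 20.6 and 11.8% of promoters. A match describes the letters only, and binding was not measured.

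Libraries held 11678450 to 13616935 counts, of which 0.857 to 1% fell on the 85 symbols, and 3 counts stood for 0.208 to 0.262 CPM (counts scaled to the library total with TMM factors). Replicates are separate rats. The 4 cortical markers, among them Tbr1, Cux2 and Fezf2, were present in every library, and summed they reached 410 to 479 CPM in Sham, 160 to 225 in Model, 143 to 189 with rt-PA alone and 301 to 499 with acupuncture added. Markers of skeletal muscle, a tissue rich in mitochondria, summed to 10.6 to 12.4 CPM in Sham, 15.0 to 17.6 in Model, 13.1 to 17.8 in rt-PA and 7.41 to 9.60 in rt-PA+Acu, most of it Acta1, with Ckm at most 0.23, and those of brown fat to at most 1.36 CPM, with Ucp1 at most 0.0737. Summed striatal markers ran from 213 to 441 CPM among the Sham libraries and from 102 to 144 in the other groups. A pair of library patterns touches the results. At some genes the 3 Sham libraries and Model replicate 3 stood apart from the other 8 libraries, and rt-PA+Acu replicate 3 lay nearer to the rt-PA libraries than rt-PA+Acu replicates 1 and 2 did. Both are given beside the results they bear on.

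The comparison of Model with Sham asks what the untreated clot did. Lower levels prevailed across the pathway: of 80 tested genes, 36 fell and 6 rose past an adjusted p of 0.05. The falls made up 45% of the tested genes, against 26.6% of all 12884 genes tested, and the rises 7.5% against 27.3%. In either direction 42 genes passed, 52.5% against 54% for all genes, so the genes passed about as often as others and differed in the balance of directions. The changes were small. The median log2 fold change was -0.25, where all genes had 0.01, and the median absolute change was 0.29 against 0.48. With an added threshold of 1 on the absolute log2 fold change (a DEG), 1 gene remained, Ndufa4l2, against 21.5% of all genes in either direction, 12% downwards and 9.43% upwards. Scaling by library size alone gave 23 lower and 9 higher genes, 40% of those tested against 55.2% of all genes. In a fit with a term for the library split 7 genes fell and 0 rose, 8.75% of those tested against 28.3% of all genes. Leaving out 1 library lowered the count of passing genes, except for Model replicate 3. It was 23 without Sham replicate 2 and 24 without Model replicate 2 (28.8% and 30% of the tested genes, against 44.7% and 45.1% of all genes). Without Model replicate 3 it was 47, with 38 falls and 9 rises (58.8% of the tested genes against 57.6% of all genes). Of the 42 calls, 6 held under all 14 alternative settings tried, and 14 were lost only with the split term. In that fit the difference between Model and Sham rests on Model replicate 3.

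Summed over all 85 symbols, the level was 9981 ± 343 CPM in Sham and 8831 ± 251 in Model, and it was 8528 ± 327 in rt-PA against 9726 ± 956 in rt-PA+Acu (SD, n = 3 each). The Sham libraries, from 9678 to 10353 CPM, lay above all Model libraries, from 8550 to 9033. The summed level of 11 neuron markers moved alongside, at 8443 to 9411 CPM in Sham and 7659 to 7790 in Model, then 6198 to 7554 with rt-PA and 7263 to 10471 with acupuncture added, with rt-PA+Acu replicate 3 the lowest of its group. All 11 were detected in every library, and among them 4 fell and 3 rose in Model vs Sham. In the same comparison 5 of 6 oligodendrocyte markers fell and 0 rose, and 5 of 6 astrocyte markers fell and 1 rose. Of 5 microglia markers 4 fell and 1 rose, and of 5 markers of monocytes and macrophages 4 rose and 0 fell. Oligodendrocyte markers summed to 12008 to 17914 CPM in Sham and 1672 to 8505 in Model. In rt-PA+Acu replicates 1 to 3 they summed to 21078, 8742 and 3222. The part of these markers in the result was not tested.

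**Figure D1:**
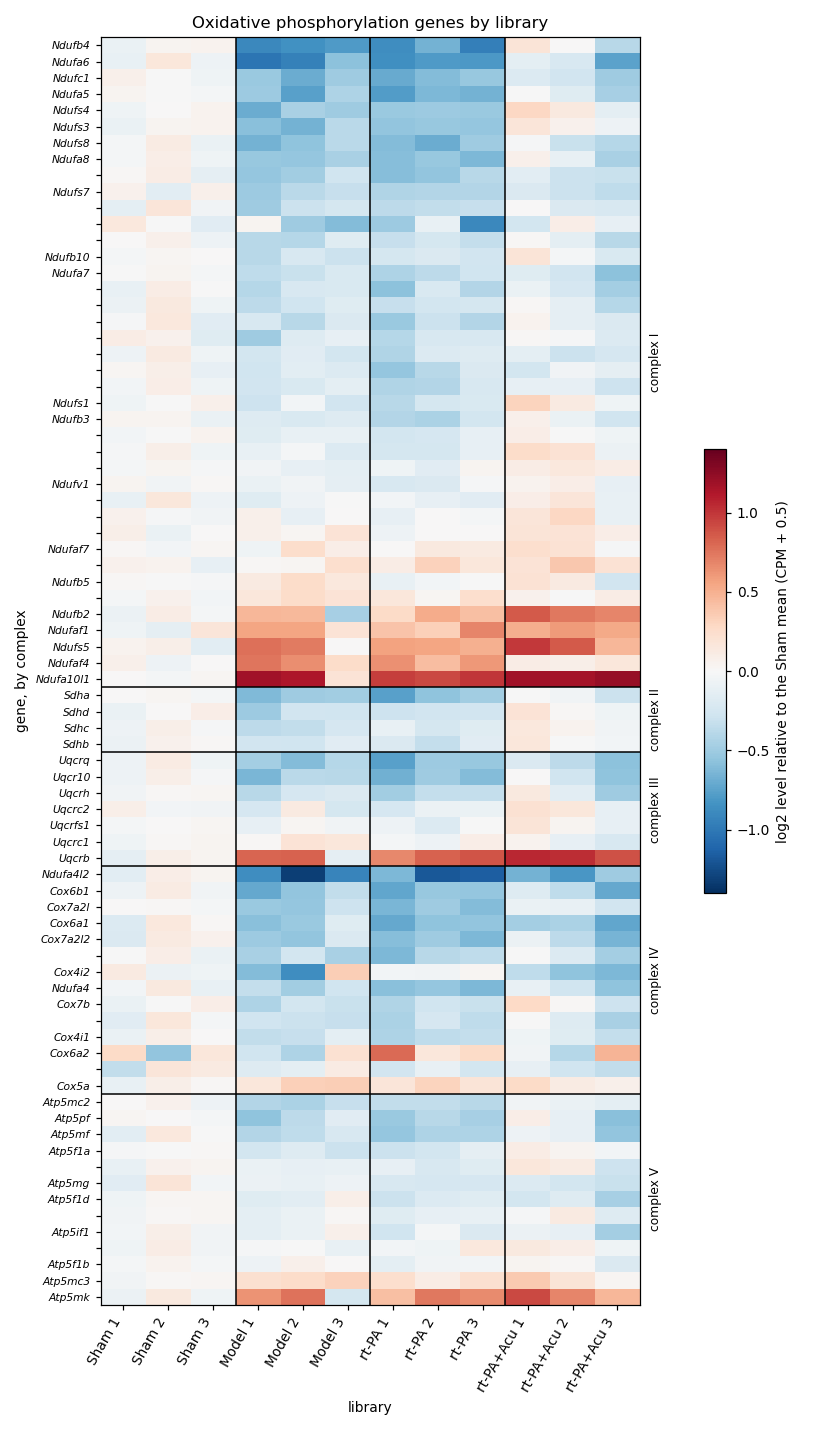
Levels of 78 genes tested in all comparisons, as log2 of CPM + 0.5 relative to the Sham mean, with a row per gene grouped by complex (genes named in the text are labelled) and a column per library. Most rows are blue in Model and rt-PA and paler in rt-PA+Acu replicates 1 and 2, and a few rows (Ndufa10l1, Uqcrb, Ndufs5, Atp5mk) are red in all libraries outside Sham and Model replicate 3.

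**Figure D2:**
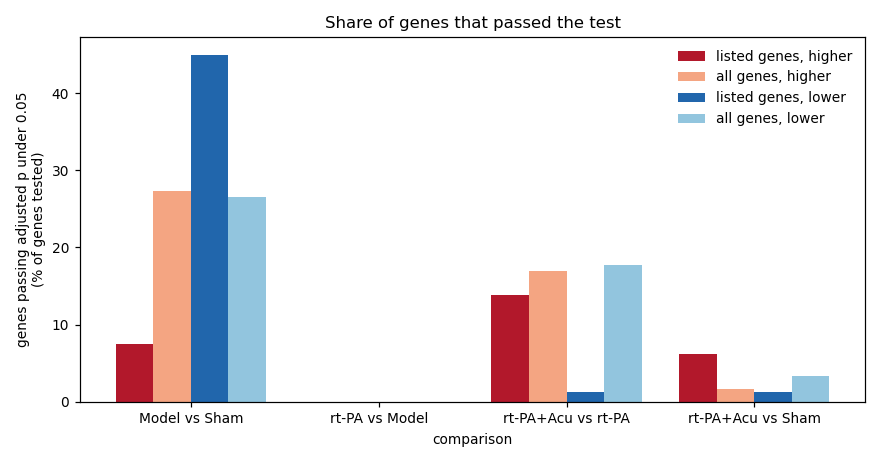
Share of tested genes that passed an adjusted p of 0.05 in each comparison, for the oxidative phosphorylation genes (dark bars) and for all genes tested (pale bars), by direction. In Model vs Sham 45% of the listed genes were lower against 26.6% of all genes, and in rt-PA vs Model both shares were 0.

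In complex I, the entry point of electrons from NADH, 16 genes fell and 4 rose among 41 tested in Model vs Sham, with a median log2 fold change of -0.22. The core subunits, which carry the redox centres, held 4 falls among 7, with Ndufs3, Ndufs7 and Ndufs8 among them, and 0 rises. The accessory subunits, which surround and stabilise the core, held 12 falls and 1 rise among 26.
Ndufb4, an accessory subunit of the membrane arm, had the smallest adjusted p of the pathway. It stood at 95.5, 105 and 106 CPM in Sham and at 54.6, 56.6 and 58.9 in Model, a log2 fold change of -0.84 ± 0.086 (SE, adjusted p = 0.000133). The groups did not overlap, as in 50 of the 80 tested genes (63.7% of all genes). Ndufa6, an accessory subunit of the LYR family, was at 57.8, 69.2 and 58.8 CPM in Sham and 30.3, 32.0 and 41.5 in Model, a change of -0.83 ± 0.14 on the log2 scale (adjusted p = 0.00141).
Ndufa8, an intermembrane-space subunit, changed by -0.50 ± 0.081 (adjusted p = 0.00121), with 195 to 217 CPM in Sham and 140.4 to 149 in Model. Ndufs4, an accessory subunit whose loss causes Leigh syndrome, fell by 0.54 (adjusted p = 0.00167), and its Model libraries, at 67.8, 80.5 and 77.9 CPM, lay below its Sham libraries, at 106, 110.5 and 114. The core subunit Ndufs3 was at 78.6, 86.3 and 86.8 CPM in Sham and 55.7, 53.0 and 64.7 in Model, a log2 fold change of -0.53 ± 0.10 (adjusted p = 0.00289).
Not all of complex I followed. Ndufv1, the core subunit that binds NADH, had a log2 fold change of -0.08 ± 0.077 (adjusted p = 0.432), and Ndufs1, the largest core subunit, -0.19 ± 0.094 (adjusted p = 0.124), with overlapping groups. Ndufs1 is among the genes that differed between rt-PA+Acu and rt-PA.

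The 4 genes of complex I that rose included 2 assembly factors. Ndufaf4, which acts early in building the matrix arm, stood at 40.7, 36.7 and 38.9 CPM in Sham and 65.3, 61.1 and 46.3 in Model, a log2 fold change of 0.58 ± 0.14 (adjusted p = 0.00785). All Model libraries were above all Sham libraries, with Model replicate 3 the nearest to Sham. Among the 7 assembly factors of complex I the median log2 fold change was 0.11, and 0 fell. Ndufaf1, which works on the membrane arm, rose by 0.47 ± 0.17 (adjusted p = 0.0467), a call that held in 4 of 14 alternatives. The other rises were Ndufa10l1 (0.92 ± 0.23, adjusted p = 0.0106) and Ndufs5 (0.56 ± 0.20, adjusted p = 0.045), both of which are low in Model replicate 3 and in Sham, and are described with the library split.

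Complex II, succinate dehydrogenase, is also an enzyme of the TCA cycle, and 3 of its 4 genes fell in Model vs Sham. Sdha, the flavoprotein that oxidises succinate, stood at 269, 273 and 263 CPM in Sham and 175, 190.0 and 191 in Model, a log2 fold change of -0.52 ± 0.076 (adjusted p = 0.000699). The lowest Sham library was thus well above the highest Model library. The membrane anchors fell too, Sdhd by 0.34 (adjusted p = 0.0179) and Sdhc by 0.31 (adjusted p = 0.0137). Sdhb, the iron-sulfur subunit, was at 98.5 to 109 CPM in Sham and 86.0 to 93.8 in Model, without overlap, and its change of -0.23 ± 0.085 did not pass (adjusted p = 0.0504). All 4 genes were below the Sham range in every Model and every rt-PA library. In Model vs Sham the groups were apart at 63.7% of all genes, and for rt-PA against Sham this share was not computed. Summed, complex II had 602 ± 17.4 CPM in Sham and 456 ± 22.3 in Model (SD, n = 3 each).

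In complex III, ubiquinol-cytochrome c reductase, 3 of 7 genes fell in Model vs Sham and 0 rose. The 3 were the small subunits Uqcrq, at 62.8, 71.6 and 63.3 CPM in Sham and 47.1, 43.0 and 49.7 in Model (log2 fold change -0.49 ± 0.10, adjusted p = 0.00376), Uqcr10 (-0.46 ± 0.10, adjusted p = 0.00511) and Uqcrh, the hinge protein for cytochrome c (-0.26 ± 0.084, adjusted p = 0.0276). The genes of the core proteins did not pass: Uqcrc1 had 0.14 ± 0.082 (adjusted p = 0.191), and Uqcrc2 ranged from 273 to 299 CPM in Sham and 239 to 308 in Model. The Rieske iron-sulfur protein gene Uqcrfs1 had -0.03 ± 0.079 (adjusted p = 0.751). Uqcrb, a small subunit, had 0.58 ± 0.23 (adjusted p = 0.0627), with Model replicates 1 and 2 at 107 and 108 CPM and Model replicate 3, at 55.3, just under the Sham range of 55.4 to 63.9.

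Complex IV, cytochrome c oxidase, had 10 falls and 1 rise among 15 tested genes in Model vs Sham, and a median log2 fold change of -0.37. Of the 9 subunits of the ubiquitous form 7 fell. Cox6b1, which bridges the monomers of the dimer, was at 85.9, 98.3 and 87.1 CPM in Sham and 54.8, 61.6 and 71.2 in Model, a change of -0.52 ± 0.11 (adjusted p = 0.00515) with no overlap of the groups. The supercomplex factor Cox7a2l was at 145, 146 and 142 CPM in Sham and 100.3, 98.8 and 118 in Model (-0.44 ± 0.092, adjusted p = 0.00424). Cox5a, which with Cox4i1 forms an early assembly module, was the gene that rose, at 113 to 128 CPM in Sham and 136 to 154 in Model (0.29 ± 0.090, adjusted p = 0.0236), while its partner Cox4i1 fell by 0.25 (adjusted p = 0.0415).
Complex IV has isoform pairs that mark tissues or low oxygen. Ndufa4l2, the paralogue of Ndufa4 that hypoxia induces in many cells and that brain pericytes express, was low throughout, at 3.48, 4.21 and 4.02 CPM in Sham and 1.91, 1.27 and 1.82 in Model. Its change of -1.21 ± 0.30 on the log2 scale (adjusted p = 0.00903) was the largest of the pathway and left every Model library below every Sham library. In counts this was at most 55 in a library and at least 15. Ndufa4 itself fell by 0.36 (adjusted p = 0.0154). Of 6 pericyte markers, all detected in every library, 3 fell in Model vs Sham, and their summed level went from 240 to 267 CPM in Sham to 112 to 150 in Model. Their part in the fall of Ndufa4l2 was not tested.
The lung and hypoxia form Cox4i2 was at 1.53 to 1.86 CPM in Sham and 0.676 to 2.23 in Model (-0.37 ± 0.48, adjusted p = 0.546), with overlapping groups. The heart and muscle form Cox6a2 was at 1.99 to 3.88 CPM in Sham and 2.20 to 3.72 in Model (-0.15 ± 0.36, adjusted p = 0.744), whereas Cox6a1 fell by 0.40 (adjusted p = 0.0308) with overlapping groups. Cox7a1, Cox7b2 and Cox8c, forms of muscle or testis, were at or near 0, and Cox7b fell by 0.32 (adjusted p = 0.0158).

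Complex V, the ATP synthase, changed least often, with 4 falls and 1 rise among 13 tested genes in Model vs Sham and a median log2 fold change of -0.06. Whether this differed from the other complexes was not tested. Atp5f1b, the catalytic beta subunit, was at 1174, 1237 and 1166 CPM in Sham and 1132, 1251 and 1195 in Model (0.01 ± 0.078, adjusted p = 0.917). Its partner in the head, the alpha subunit Atp5f1a, fell by 0.24 (adjusted p = 0.0275).
The c-ring genes encode the same mature protein with different targeting sequences, and they parted. Atp5mc2 was at 109, 113 and 104 CPM in Sham and 81.4, 79.6 and 86.4 in Model (-0.39 ± 0.082, adjusted p = 0.00457), and Atp5mc3 at 129.9, 137 and 138 CPM in Sham and 158, 161 and 169 in Model (0.28 ± 0.077, adjusted p = 0.0154). The groups did not overlap for either gene. Of the peripheral stalk, which holds the head still, Atp5pf fell by 0.35 (adjusted p = 0.0263), and of the membrane subunits Atp5mf fell by 0.32 (adjusted p = 0.0298). The inhibitor Atp5if1 had -0.04 ± 0.089 (adjusted p = 0.753).

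The comparison of rt-PA with Model asks what thrombolysis at 6 h added. Of 79 tested genes 0 passed, as did 0% of all 12941 genes in edgeR's quasi-likelihood test, in either direction and with or without the fold threshold. At an unadjusted p under 0.05 there were 2 of the 79 and 1284 of all genes. DESeq2 called 192 genes, of which 0 were among the 79. Those 2 were the accessory subunit Ndufb5, at 50.5, 55.1 and 51.2 CPM in Model and 42.8, 44.9 and 46.1 in rt-PA (-0.23 ± 0.095, adjusted p = 0.497), and Ndufa4 (-0.22 ± 0.092, adjusted p = 0.499). The groups did not overlap at either gene, as at 6 of the 79 (16% of all genes). Elsewhere in complex I the accessory subunits Ndufb3 (-0.18 ± 0.093, adjusted p = 0.588), Ndufb2 (0.20 ± 0.24, adjusted p = 0.829) and Ndufb10 (0.07 ± 0.089, adjusted p = 0.833) did not pass. In complex II the largest value was that of Sdhc (0.15 ± 0.089, adjusted p = 0.64). In complex III Uqcrb had 0.23 ± 0.24 (adjusted p = 0.804) and Uqcrc1 -0.12 ± 0.094 (adjusted p = 0.724). Complex V ranged from -0.14 (Atp5mg, adjusted p = 0.6) to 0.17 (Atp5mk, adjusted p = 0.862). The widest change was 0.66 ± 0.33 for Cox6a2 (adjusted p = 0.549), a gene at 2.20 to 5.82 CPM in these libraries. The median over the pathway was -0.06, with all genes at 0.00391. The levels did not differ beyond the spread of the replicates, which does not show that they were alike.

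The comparison of rt-PA+Acu with rt-PA, called the acupuncture comparison here, asks what the earlier needling added. Here 11 genes of the pathway rose and 1 fell among 79 tested, against 17% and 17.7% of all 12999 genes in the same directions. The rises came to 13.9% of the tested genes and the fall to 1.27%, and in either direction 15.2% passed, against 34.8%. No gene was a DEG, where 15.3% of all genes were (7.17% upwards and 8.16% downwards). The median log2 fold change was 0.21 (all genes -0.00273), and 69 of the 79 values were above 0. By complex, 8 of 41 genes rose in complex I, 2 of 4 in complex II, 0 of 7 in complex III, 1 of 14 in complex IV and 0 of 13 in complex V. Without rt-PA+Acu replicate 3, 28 genes rose and 1 fell, 36.7% of those tested against 41.1% of all genes. Leaving out any other library of the comparison left 3 to 6 genes, 3.75 to 7.5% of those tested against 18.9 to 30% of all genes.
Several astrocyte, neuron and cortex markers moved in the same direction. Between rt-PA and rt-PA+Acu 4 of 11 neuron, 5 of 6 astrocyte and 3 of 4 cortex markers rose and 0 of them fell. The neuron markers Gad1, Gad2 and Nefl were lower by mean CPM (497 to 405, 164 to 124 and 360 to 332) without passing. All 5 markers of monocytes and macrophages, all 5 of neutrophils and all 5 of endothelium fell. Of 6 oligodendrocyte markers 0 passed, of 5 microglia markers 1 rose and 1 fell, and of 6 pericyte markers 2 rose and 2 fell. Their part in the result was not tested.

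Of the 11 rises 8 lay in complex I. Ndufs3, a core subunit of the matrix arm, was at 57.1, 58.1 and 57.6 CPM in rt-PA and 94.2, 87.3 and 79.8 in rt-PA+Acu, a log2 fold change of 0.60 ± 0.10 (adjusted p = 0.00558). Ndufs4 was at 76.4, 77.5 and 76.5 CPM in rt-PA and 135, 121 and 100.1 in rt-PA+Acu (0.63 ± 0.12, adjusted p = 0.00905). The 3 rt-PA libraries were close together and the rt-PA+Acu libraries all above them, with replicate 3 the lowest. Ndufb4, the gene with the largest rise, was at 55.5, 64.3 and 52.5 CPM in rt-PA and 115, 102 and 77.6 in rt-PA+Acu (0.78 ± 0.16, adjusted p = 0.0105).
These 3 genes passed under all 14 alternative settings tried. The core subunit Ndufs1 (0.41 ± 0.12, adjusted p = 0.0362) and the accessory subunits Ndufa5 (0.48 ± 0.13, adjusted p = 0.0283), Ndufa8 (0.44 ± 0.14, adjusted p = 0.0489) and Ndufb2 (0.36 ± 0.11, adjusted p = 0.0404) also rose. In this order their calls held in 7, 8, 6 and 7 of the 14 alternatives. The fall was that of the assembly factor Ndufaf4, at 60.6, 52.4 and 59.4 CPM in rt-PA and 41.7, 41.0 and 43.3 in rt-PA+Acu (-0.45 ± 0.11, adjusted p = 0.0162). In Ndufaf4 replicate 3 of rt-PA+Acu stood with its group, all 3 libraries below the lowest rt-PA library.

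In complex II Sdha and Sdhd, whose promoter windows are printed above, rose. Sdha was at 159, 181 and 191 CPM in rt-PA and 267, 260.2 and 217 in rt-PA+Acu (0.48 ± 0.13, adjusted p = 0.0221), and Sdhd at 82.2, 83.3 and 83.4 in rt-PA and 115, 101 and 96.0 in rt-PA+Acu (0.33 ± 0.10, adjusted p = 0.0433). Sdhb (0.27 ± 0.11, adjusted p = 0.0837) and Sdhc did not pass, although the groups did not overlap at any of the 4 genes. Groups were apart at 31 of the 79 tested genes and at 51.1% of all genes in this comparison. In complex IV the gene that rose was Cox7a2l, at 92.7, 103 and 94.4 CPM in rt-PA and 136, 135 and 120.3 in rt-PA+Acu (0.43 ± 0.10, adjusted p = 0.0155). Among the subunits proper Cox7b came nearest (0.36 ± 0.15, adjusted p = 0.101). The low isoforms Cox4i2 (-0.68 ± 0.34, adjusted p = 0.153) and Cox6a2 (-0.43 ± 0.35, adjusted p = 0.371) were below 0 and did not pass. In complex III the smallest adjusted p was that of Uqcr10 (0.33 ± 0.15, adjusted p = 0.131), and Uqcrc1 was the gene below 0 (-0.09 ± 0.11, adjusted p = 0.544). In complex V it was that of Atp5mc2 (0.27 ± 0.090, adjusted p = 0.0516) and then Atp5f1a (0.26 ± 0.11, adjusted p = 0.108), and the lowest value was that of Atp5f1d (-0.08 ± 0.11, adjusted p = 0.597).

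**Figure D3:**
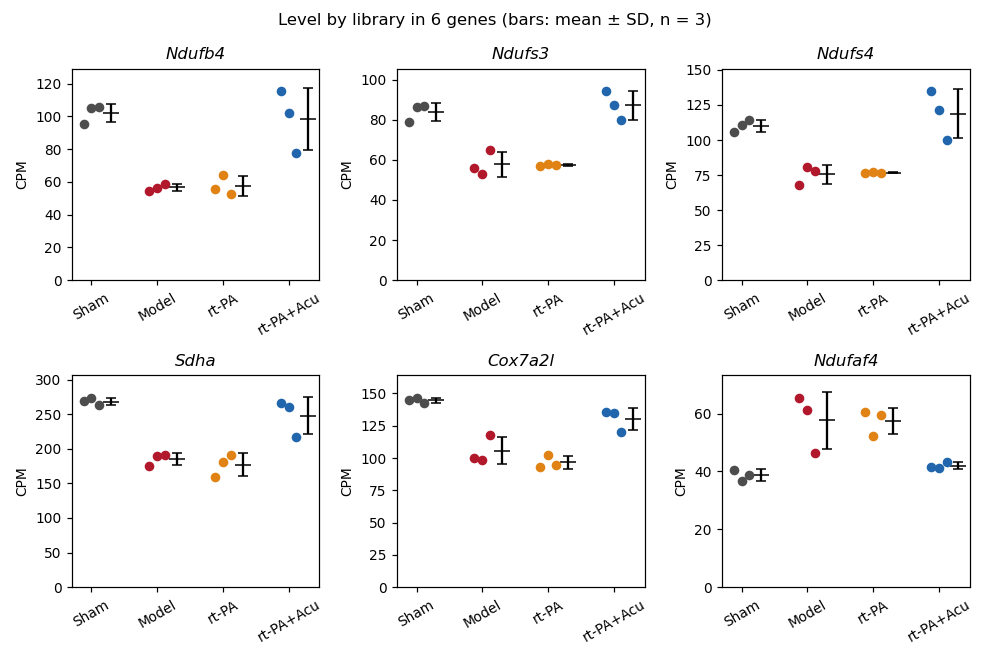
CPM in each library (points, in replicate order) with the group mean and SD (bars, n = 3) for 6 genes, on axes that start at 0. Ndufb4, Ndufs3, Ndufs4, Sdha and Cox7a2l are lower in Model and rt-PA than in Sham and rt-PA+Acu, with rt-PA+Acu replicate 3 the lowest of its group, and Ndufaf4 is higher in Model and rt-PA.

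Model vs Sham and rt-PA+Acu vs rt-PA share no library, so their values can be set side by side. All 36 genes that fell in Model vs Sham had a value above 0 in the acupuncture comparison, and 9 of them passed, or 25%. Of all 3393 genes that fell and were tested in both, 94.5% had the opposite sign and 55.8% passed in that direction. The median of the 36 went from -0.39 in the first to 0.26 in the second. Among the 6 that rose in Model vs Sham, 2 had the opposite sign and 1, Ndufaf4, passed. Over the 79 genes tested in both, the 2 sets of log2 fold changes had Pearson's r = -0.477 and Spearman's rho = -0.632, and over 12753 genes r = -0.834 and rho = -0.811. These are correlations across genes within the same libraries, and genes are not independent replicates.

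**Figure D4:**
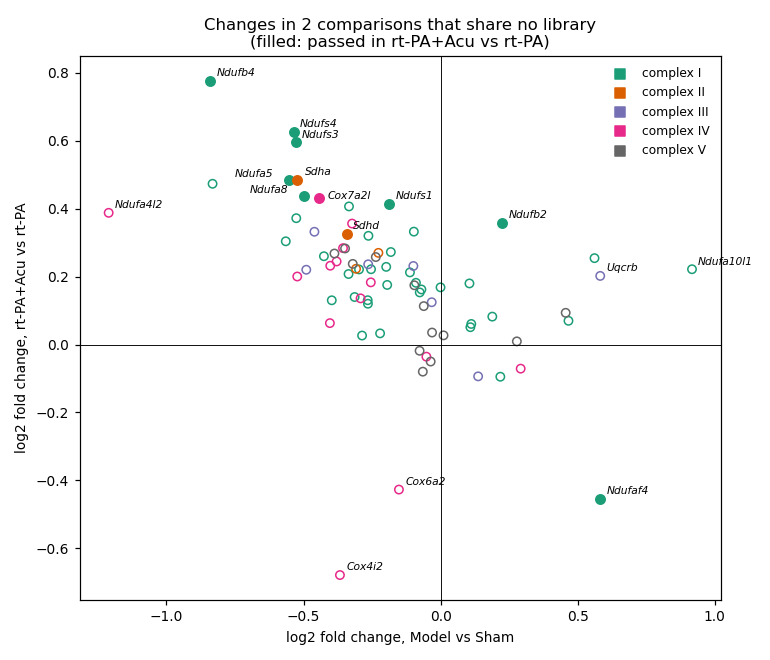
Log2 fold change in Model vs Sham (x axis) against that in rt-PA+Acu vs rt-PA (y axis) for 78 genes, coloured by complex, with filled points for genes that passed in the latter. The 35 genes drawn that fell in Model vs Sham all lie above 0 on the y axis, with Ndufb4 highest, and Ndufaf4 is the gene that rose there and passed in the opposite direction.

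The return towards Sham differed between rats. Of the 36 genes that fell in Model vs Sham, a choice that used the Sham and Model libraries, each rt-PA library was below the Sham range in all 36. In rt-PA+Acu, 26 of the 36 were within or above the Sham range in replicate 1, 9 in replicate 2 and 4 in replicate 3. The median level relative to the Sham mean was -0.01, -0.17 and -0.43 on the log2 scale in these 3 libraries, and -0.57, -0.46 and -0.45 in rt-PA. Replicate 3 was thus just above the highest rt-PA library by this median, and was above the rt-PA range in 19 of the 36 genes, against 35 and 34 in the other two. Ndufa6 shows the pattern, at 56.1, 53.1 and 36.7 CPM in rt-PA+Acu beside 34.0 to 35.6 in rt-PA and 57.8 to 69.2 in Sham. Such counts were not made over all genes that fell, of which 55.8% passed upwards in the acupuncture comparison, against 25% of these 36. The pattern is thus not shown to be particular to this pathway.
Summed over a complex, levels in rt-PA+Acu were 3248 ± 308 CPM for complex I, 593 ± 51.3 for complex II, 981 ± 119.5 for complex III, 1568 ± 188 for complex IV and 3336 ± 294 for complex V (SD, n = 3 each). The Sham sums were 3216 ± 76.6, 602 ± 17.4, 952 ± 10.8, 1841 ± 135 and 3369 ± 107 CPM. These sums include the genes of the library split described below, 6 of them low and 2 high in Sham. Among them Ndufa10l1 had means of 76.0 CPM in Sham and 174 in rt-PA+Acu, Uqcrb 60.5 and 121, and Cox6a1 330 and 227. Sums without the split genes were not made. In complexes I, II, III and V the means differed by less than the SD of rt-PA+Acu. In complex IV they differed by more than that, and rt-PA+Acu replicate 1, at 1743, was the only library of its group inside the Sham range of 1710 to 1980.

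The comparison of rt-PA+Acu with Sham asks what remained different after both treatments. Of 80 tested genes 5 rose, against 1.7% of all 12775 genes, and 1 fell, against 3.4%. In either direction 7.5% of the genes passed, against 5.1%. The risen genes were Ndufa10l1, Uqcrb, Ndufb2, Ndufs5 and Atp5mk, and the first 2 were DEGs (all genes 0.916% upwards, 1.14% downwards and 2.06% in either direction). Ndufa10l1 was at 76.1, 74.7 and 77.3 CPM in Sham and 173, 171 and 178 in rt-PA+Acu (1.20 ± 0.085, adjusted p = 0.00188). Uqcrb was at 55.4, 63.9 and 62.3 CPM in Sham and 126, 124 and 113 in rt-PA+Acu (1.00 ± 0.099, adjusted p = 0.00314). Neither pair of groups overlapped, as at 26 of the 80 tested genes (30.7% of all genes), and the spread within each was small.
Ndufb2 (0.77 ± 0.099, adjusted p = 0.0066), Ndufs5 (0.80 ± 0.15, adjusted p = 0.0268) and Atp5mk, the DAPIT subunit of ATP synthase (0.71 ± 0.13, adjusted p = 0.0258), rose less. The gene that fell was Cox6a1, at 290.1, 367 and 334 CPM in Sham and 238, 242 and 200.1 in rt-PA+Acu (-0.54 ± 0.13, adjusted p = 0.049). This call was lost in 9 of 14 alternatives, among them the leaving out of any 1 library. The calls of Atp5mk and Ndufs5 were lost in 7 and 5 of the 14, and those of Ndufa10l1, Uqcrb and Ndufb2 in 1. The assembly factor Ndufaf1 came near (0.57 ± 0.14, adjusted p = 0.0626). Other values that did not pass included Ndufa7 (-0.33 ± 0.12, adjusted p = 0.137), Uqcrq (-0.38 ± 0.12, adjusted p = 0.107), Cox6b1 (-0.40 ± 0.14, adjusted p = 0.137) and Atp5f1d, the delta subunit (-0.30 ± 0.10, adjusted p = 0.133). In complex II the values ran from -0.11 (Sdha, adjusted p = 0.558) to 0.05 (Sdhd, adjusted p = 0.799). Ndufa4l2 had -0.76 ± 0.27 (adjusted p = 0.14), at 2.00 to 2.62 CPM in rt-PA+Acu.

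All 5 risen genes follow the library split. At Ndufa10l1, Uqcrb, Ndufs5, Atp5mk, Ndufb2 and Ndufaf1 the 3 Sham libraries and Model replicate 3 all lay below the other 8 libraries, and at Atp5f1d and Cox6a1 above them. That is 6 and 2 of 80 genes, or 7.5% and 2.5%, against 1.67% and 1.26% of 13298 genes. Ndufa10l1 was at most 86.7 CPM in the 4 libraries and at least 145 in the 8, and Model replicates 1 and 2 were at 173 and 168 CPM where Model replicate 3 was at 86.7. Ndufb2 was at 49.4 and 48.8 CPM in Model replicates 1 and 2 and at 25.7 in Model replicate 3, under the lowest Sham library at 33.5.
The labels name no batch that matches these libraries. Since all Sham libraries are on the one side and all rt-PA+Acu libraries on the other, the split and the group cannot be told apart in this comparison. When the 12 libraries were fitted together with the split as a term, where the difference from Sham rests on Model replicate 3, 0 genes of the pathway passed, as did 0.0301% of all genes, and Atp5mk and Ndufb2 took the opposite sign. In Model vs Sham the same fit called 7 falls, of which 6 had also passed without the term (Ndufb4, Ndufs3, Ndufs4, Ndufc1, Sdha and Atp5mc2). For the acupuncture comparison, whose libraries all lie on the same side, it gave 23 rises and 1 fall, 30% of the tested genes against 43.5% of all genes. The fit over 12 libraries without the term gave 20 rises and 1 fall there, 26.2% against 41.8%.

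**Figure D5:**
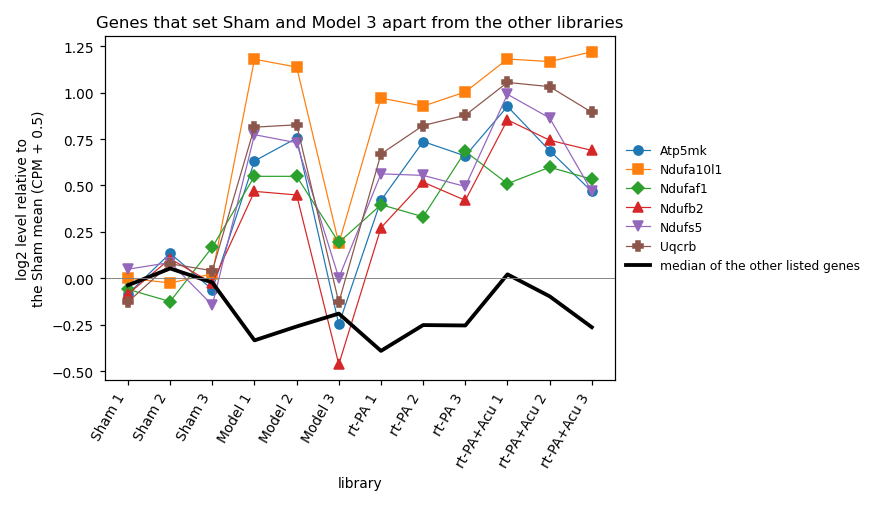
Log2 level relative to the Sham mean (CPM + 0.5) in each library for the 6 genes at which Sham and Model replicate 3 lie below all other libraries, with the median of the other 73 genes as a black line. The 6 coloured lines drop in Model replicate 3 from their values in Model replicates 1 and 2, to near the Sham level for Ndufs5 and Uqcrb, under it for Ndufb2 and Atp5mk and above it for Ndufa10l1 and Ndufaf1, while the black line stays below 0 in all Model libraries.

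Other mitochondrial genes were counted by list. In Model vs Sham, where 27.3% of all genes rose and 26.6% fell, of 69 genes of the mitochondrial ribosome, which makes the mitochondrially encoded subunits, 21 rose and 2 fell, with Mrps2 at 0.74 ± 0.097 (adjusted p = 0.000423) and a median of 0.20. Of 8 genes of the import pores of the outer membrane 4 rose and 1 fell, with Tomm20 at 0.60 ± 0.087 (adjusted p = 0.000669). Among 42 assembly factors outside the symbol rule 5 rose and 9 fell. The complex III factors Ttc19 (0.67 ± 0.10, adjusted p = 0.00079) and Bcs1l (0.77 ± 0.13, adjusted p = 0.00133) were among those that rose.
Of 20 genes of the TCA cycle and pyruvate dehydrogenase 4 rose and 5 fell, and Idh2, the mitochondrial NADP-dependent isocitrate dehydrogenase, fell most (-1.72 ± 0.096, adjusted p = 1.08e-05). Among 12 carriers and exporters of energy 1 rose and 3 fell, including the creatine kinases Ckb (-0.60 ± 0.095, adjusted p = 0.00106) and Ckmt1 (-0.70 ± 0.15, adjusted p = 0.00454).
Of 17 regulators of mitochondrial biogenesis 8 rose and 2 fell. Ppargc1a, the coactivator PGC-1α, rose by 1.07 ± 0.13 (adjusted p = 0.000279), and the nuclear receptor Esrrg fell (-1.99 ± 0.25, adjusted p = 0.000338). Of 10 genes of fission and fusion 2 rose and 3 fell, with Fis1 at -0.68 ± 0.13 (adjusted p = 0.00273). Among 8 genes of mitophagy 1 rose, Phb2 (0.77 ± 0.086, adjusted p = 0.000193), and 3 fell, Pink1 the most (-1.28 ± 0.18, adjusted p = 0.000562). Of the 5 regulators of pyruvate dehydrogenase by phosphorylation 2 rose, Pdp1 with the smaller p (0.88 ± 0.16, adjusted p = 0.00214), and 2 fell, Pdk2 likewise (-0.75 ± 0.15, adjusted p = 0.00302). The uncoupling proteins Ucp2 and Slc25a27 did not pass.
In the acupuncture comparison 17% of all genes rose and 17.7% fell. Here assembly factors had 5 rises and 0 falls among 42, carriers 3 and 0 among 12, and the TCA cycle 4 and 0 among 20. Idh2 was at 0.96 ± 0.17 (adjusted p = 0.00652). The mitochondrial ribosome had 2 rises and 2 falls and a median of 0.000294. Of the regulators 2 rose and 2 fell, with Ppargc1b at 1.61 ± 0.21 (adjusted p = 0.00265) and Pprc1 at -0.96 ± 0.13 (adjusted p = 0.00289). In mitophagy 3 rose and 1 fell, with Pink1 at 0.96 ± 0.19 (adjusted p = 0.00947), and Ucp2 fell (-1.01 ± 0.14, adjusted p = 0.00265). Of the pyruvate dehydrogenase regulators Pdk2 rose by 1.04 ± 0.14 (adjusted p = 0.00241). In rt-PA vs Model 0 genes of these lists passed. In rt-PA+Acu vs Sham, where 5.1% of all genes passed, 3 passed in all: Sdhaf1, an assembly factor of complex II (1.03 ± 0.10, adjusted p = 0.00314), Mrpl42 (0.98 ± 0.15, adjusted p = 0.0143) and Pdk4, which fell (-1.74 ± 0.34, adjusted p = 0.0308).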

How the data were processed

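RNA of 12 cortex samples, 1 library per rat, was poly(A) selected and made into strand-marked (dUTP) libraries with molecular identifiers in the adapters; whether these were used in counting is not given in the sources used here. The authors deposited whole-number read counts per gene symbol, not normalized. The submitters' processing notes name STAR 2.7.10a, featureCounts 2.0.1, Salmon 1.9.0 and the mRatBN7.2 build. Gene positions are not given, since the reference at hand is of another build, GRCr8, which was used for promoters only.

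Groups came from the labels. Each comparison was fitted on its 6 libraries in R 4.3.3 with edgeR 4.0.16 (filterByExpr, TMM, quasi-likelihood test), and p-values were adjusted over all genes tested (Benjamini-Hochberg). A gene passed at an adjusted p under 0.05, and was a DEG with an absolute log2 fold change over 1 as well, the thresholds of the study. Standard errors are of the log2 fold change. The fits were tested on simulated data. The labels name no pairing by replicate number, and libraries were fitted unpaired. Same-numbered deviations correlated between -0.136 and 0.173 and different-numbered ones between -0.229 and 0.256, which cannot exclude a pairing. Alternatives used DESeq2 1.42.0, other scalings and filters, a fit over 12 libraries, a replicate block and each library left out. A term for the library split was chosen with earlier results known. Figures were drawn with Python 3.11.15 and matplotlib 3.10.9. Depth was 11678450 to 13616935 counts a library.

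The genes and lists were chosen with earlier results of these data known. The rule for named genes took DEGs, the 2 genes of smallest p on each side of 0 in each complex and comparison, isoform pairs, the gene with the highest mean CPM per complex, all of complex II, and the 2 genes of smallest p in each other list. Not all of these are printed where nothing passed, and further genes and the promoter windows were chosen after their values were seen. No table of protein sequences was used. Some genes are not reported here by name.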

Additional observations from a re-analysis of the deposited data

How the results depend on the processing

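Passing genes of the pathway in Model vs Sham numbered 38 to 43 with DESeq2 (43), its size factors, other filters, a fit over 12 libraries and the replicate block. They numbered 32 with library size alone, where the median was -0.18, and 7 with the split term, where it was -0.19 and 0 genes were DEGs. These were 47.5 to 55.1%, 40% and 8.75% of the tested genes, against 45.2 to 54.4%, 55.2% and 28.3% of all genes. Leaving out 1 library gave 23 to 47 genes and 1 to 2 DEGs. The counts were 35, 23 and 25 without Sham replicates 1, 2 and 3, and 27, 24 and 47 without Model replicates 1, 2 and 3. For rt-PA+Acu against rt-PA the count of 12 became 7 with library size alone, 21 in the fit over 12 libraries, 24 with the split term and 17 with DESeq2. In this order they were 8.86, 26.2, 30 and 21.5% of the tested genes, against 33.9, 41.8, 43.5 and 39.2% of all genes. Leaving out 1 library gave 3 to 29: 3 without rt-PA replicate 1, rt-PA+Acu replicate 1 or rt-PA+Acu replicate 2, 6 without rt-PA replicate 2, 5 without rt-PA replicate 3 and 29 without rt-PA+Acu replicate 3. For rt-PA+Acu against Sham the count of 6 became 0 with the split term and 3 to 5 without 1 library, and the 2 DEGs became 1 without a filter beyond 1 count, 0 with the split term and 1 to 2 without 1 library. With the split term Atp5mk had -0.24 and Ndufb2 -0.16 there. In rt-PA vs Model 0 genes of the pathway passed under each alternative run. With 1 library left out, the share of all genes that passed ran from 44.7 to 57.6% in the first of these comparisons, from 18.9 to 41.1% for rt-PA+Acu against rt-PA and from 0.867 to 6.61% for rt-PA+Acu against Sham. The cause of these differences was not tested.

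With the replicate block 38 genes passed for Model against Sham, 0 for rt-PA against Model, 5 for rt-PA+Acu against rt-PA and 4 for rt-PA+Acu against Sham. These were 47.5, 0, 6.33 and 5% of the tested genes, against 52.2, 0, 28.4 and 2.26% of all genes. The labels do not say whether the replicate numbers mark a shared origin. A check of gene length was not run, as the reference gives gene spans only. Genes with few counts, such as Cox4i2 and Ndufa4l2, are limited by depth.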
